A study of Mus musculus with 4 samples.

Results

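Calcium pumps and calcium buffers of skeletal muscle were described here by 9 genes, namely Atp2a1, Atp2a2, Sln, Pln, Casq1, Casq2, Srl, Hrc and Pvalb. All rows of the count table carrying one of these symbols were taken, giving 102 of the 42207 start sites and 9 of the 9838 genes, and every one of the 9 symbols had at least 1 row. The libraries came from gastrocnemius muscle of adult male mice, 2 with a knockout of AMPKα2 (AMPKα2-/- on C57BL/6, KO) and 2 wild-type controls (WT), with 1 mouse per library. AMPKα2 is a catalytic α subunit of AMPK, a kinase that responds to falling cellular energy, and the knockout was present in the whole animal, so that effects within muscle and effects from other organs cannot be told apart. The assay, whole transcriptome start site sequencing (WTSS-seq), reads RNA from its 5′ side, and a start site is a cluster of such read ends.

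A muscle fibre contracts when calcium leaves the sarcoplasmic reticulum and relaxes when calcium is pumped back. The pump is SERCA, made from Atp2a1 in fast fibres and from Atp2a2 in slow fibres and heart, and it is restrained by the small membrane proteins sarcolipin (Sln) and phospholamban (Pln). Inside the reticulum, calcium is held by calsequestrin (Casq1, the main form of fast fibres, and Casq2, a form found in slow fibres and heart), by sarcalumenin (Srl) and by the histidine-rich calcium-binding protein (Hrc), whereas parvalbumin (Pvalb) takes up calcium in the cytosol of fast fibres.

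Totals were 2900279 and 2303294 reads for the KO mice, against 1300069 and 1568945 for the WT mice, and the 9 genes took 65335 reads, or between 0.681% and 0.942% of a library. The WT libraries were shallower, and 9 of the 102 sites had no read in either WT library and 0 had none in either KO library, against 11.8% and 2.29% of all sites. Reads at intronic sites made up 38.7% of all reads assigned to nuclear genes other than ribosomal RNA in KO replicate 1, against 27.7% to 35.3% in the other libraries. The targeted gene Prkaa2 had normalized counts of 149 and 183 in KO, against 153 and 186 in WT, and 2 of its 19 sites had no KO read and a read in both WT libraries. The knockout removed part of the catalytic domain, but the deleted bases were not matched to these sites, since exon positions were not used here, and the summed counts do not check the labels. All 12 fast fibre markers were in the table, and 5 of the 8 heart markers (Myl7, Nppa, Nppb, Tnni3 and Tnnt2) were not detected.

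The RefSeq promoter table held 6 of the 9 genes, without Atp2a2, Sln and Srl, and among these 6 only Atp2a1 and Hrc had a site that overlapped the bases just before the gene. The 120 bases before the annotated gene are shown for both genes to place these sites (RefSeq, GRCm38.p6, 5′ to 3′ on the strand of the gene, chr7:126463104-126463223 on the minus strand for Atp2a1 and chr7:45335149-45335268 on the plus strand for Hrc). Capitals mark the bases that lie inside the start site, 28 for Atp2a1 and 25 for Hrc.
Atp2a1: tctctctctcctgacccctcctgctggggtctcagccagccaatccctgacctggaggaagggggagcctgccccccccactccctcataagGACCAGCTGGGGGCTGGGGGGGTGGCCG
Hrc: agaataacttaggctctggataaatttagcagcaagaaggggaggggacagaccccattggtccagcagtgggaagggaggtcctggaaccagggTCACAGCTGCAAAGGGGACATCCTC
In each gene the bases in capitals contain the letters CAGCTG, a match to the E-box CANNTG, which starts 55 bases before the annotated promoter start of Atp2a1 at position 126463073 and 22 bases before that of Hrc. CANNTG, whose letters read alike on both strands, occurs in the 250 bases before the start of 66.2% of all promoters in that table, and the motifs TATAAA (12.4% of promoters, both strands) and CATTCC (12.6%, both strands) had no match in those 250 bases of Atp2a1 or Hrc.

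Atp2a1, the fast fibre pump, differed between the genotypes by less than the spread between replicates. Its normalized count (reads summed over all sites of the gene and divided by the size factor of the library) was 9938 and 8433 in the KO mice, against 7959 and 10549 in the WT mice. The WT values enclosed the KO values. The log2 fold change (KO minus WT) was -0.01 with a standard error (SE) of 0.40 and an adjusted p of 0.996 in DESeq2, and the 95% interval of the fold ran from 0.580 to 1.70.

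Atp2a2, the slow fibre pump, had normalized counts of 140 and 117 in KO, against 70.1 and 106 in WT. Both KO values lay above both WT values, but the difference did not pass the test (DESeq2, log2 fold change 0.55 with SE 0.57, adjusted p = 0.916, interval of the fold 0.678 to 3.16). Atp2a2 was the only 1 of the 8 tested genes whose groups did not overlap. Among all 4688 genes with an adjusted p, 22% had both KO libraries above both WT libraries and 19.4% had both below.

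**Figure D1:**
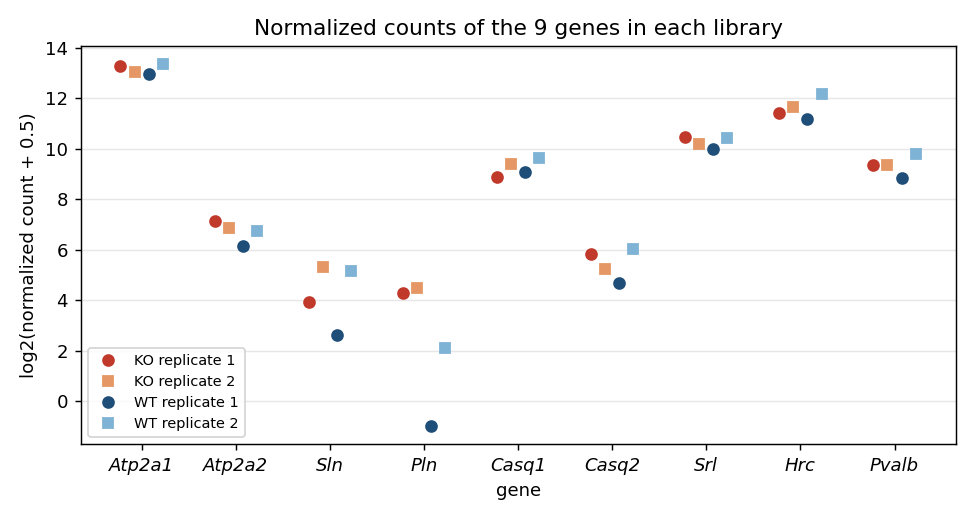
Normalized count of each of the 9 genes in each library, on the y axis as log2(normalized count + 0.5), with the genes on the x axis. Red and orange points are KO libraries and blue points WT libraries, 1 point per library. KO and WT points overlap for every gene other than Atp2a2 and Pln.

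The fast to slow balance of the pumps was compared as the share of Atp2a1 in the reads of both pump genes, a measure that does not depend on scaling between libraries. All reads of each gene in whole muscle were counted, whichever cells they came from, so that Atp2a2 reads are not specific to slow fibres. The share was 98.61% and 98.63% in KO (95% Wilson intervals 98.42% to 98.77% and 98.38% to 98.84%) and 99.13% and 99.01% in WT (98.85% to 99.34% and 98.77% to 99.20%). The intervals cover counting error only, not the spread between mice, and they treat reads as independent molecules, which PCR copies are not. Put as reads, there were 70.7 and 72.0 Atp2a1 reads per Atp2a2 read in KO and 114 and 99.6 in WT, so that the KO libraries lay below the WT libraries. The mean difference was -0.448 percentage points (KO 98.62% ± 0.0172, WT 99.07% ± 0.0851, SD, n = 2). With 2 libraries per group an exact permutation test (two-sided) cannot give a p below 0.333, and the difference is given here as a description with no test.

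This difference changed with the sites that were summed. It was -1.07 points over exonic sites and -2.17 points without the most abundant Atp2a1 site (chosen after seeing the data), and it turned to 0.228 points over the most abundant site of each gene. Slow fibre markers, 9 of 10 of which were in the table (Myl2 was not detected), had summed normalized counts of 1044 and 1569 in KO, against 470 and 1188 in WT, and 5 of the 6 tested were higher in KO with a median log2 fold change of 0.62, with 0 called. Fast fibre markers had sums of 27366 and 41183 in KO, against 27882 and 46469 in WT, with 10 of 12 lower in KO, a median of -0.08 and 0 called. Of the 9 slow markers, 3 had both KO libraries above both WT libraries and 0 had both below. Of the 12 fast markers, 0 had both above and 2 had both below. Over all tested genes these shares were 22% and 19.4%. In both lists the sums of the groups overlapped, and the part of fibre composition in the pump share was not tested. In RNA of whole muscle, fewer cells of a type and less RNA per cell cannot be told apart.

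Sln, which encodes the pump inhibitor sarcolipin, had few reads. Its normalized counts were 14.7 and 39.3 in KO, against 5.61 and 34.9 in WT, from 24, 45, 4 and 28 reads. The 2 libraries of a genotype differed more than the genotypes did (DESeq2, log2 fold change 0.40 with SE 1.09, adjusted p = 0.992, interval of the fold 0.303 to 5.77). All 3 Sln sites were exonic and lay between 89.3% and 92.6% of the way along the gene, and the site with the most reads, at chr9:53853427-53853467, held 64 of the 101 Sln reads.

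Pln, which encodes the pump inhibitor phospholamban, had normalized counts of 18.9 and 21.8 in KO, against 0 and 3.74 in WT, from 31, 25, 0 and 3 reads. Both KO libraries lay above both WT libraries, and the ratio of reads was 10.2 with an exact interval of 3.31 to 50.8 that covers counting error only. Its mean of 11.1 was under the low-count filter of the fit, so that it had no adjusted p in DESeq2 (unadjusted p = 0.0297), and in edgeR the adjusted p was 0.335. All 4 Pln sites were antisense to Pln. They were on the minus strand, that of Cep85l, within whose span (chr10:53273441-53379883) the whole of Pln (chr10:53337686-53345999) lies, and no site on the strand of Pln was listed. The site with the most reads, at chr10:53340650-53340658, had 8 and 14 KO reads and 0 and 3 WT reads. Cep85l itself had normalized counts of 861 and 577 in KO, against 303 and 347 in WT (DESeq2, log2 fold change 1.14 with SE 0.44, adjusted p = 0.217), with 23 of its 26 sites intronic. The Pln values thus count reads placed on the opposite strand.

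Casq1, the main calsequestrin of fast fibres, had normalized counts of 467 and 669 in KO, against 534 and 792 in WT. These groups overlapped (DESeq2, log2 fold change -0.22 with SE 0.45, adjusted p = 0.983, interval of the fold 0.466 to 1.57). Casq2, a calsequestrin found in slow fibres, had 56.8 and 36.7 in KO, against 25.2 and 64.8 in WT, again with overlap (0.05, SE 0.78, adjusted p = 0.994, interval of the fold 0.360 to 2.99). The share of Casq1 in the calsequestrin reads was 89.1% and 94.8% in KO, against 95.5% and 92.4% in WT, a difference of -1.99 percentage points (KO 92.0% ± 3.998, WT 94.0% ± 2.15, SD, n = 2). Thus the share of Casq1 differed by less than the spread between replicates, and it is not a measure of fast against slow fibres. A further 3 sites with 63 reads lay inside the span of Casq1 and on its strand but were assigned to Gm17224, and they were not counted here.

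Srl, which encodes sarcalumenin, had normalized counts of 1424 and 1157 in KO, against 1021 and 1391 in WT. The 4 values interleaved (DESeq2, log2 fold change 0.10 with SE 0.41, adjusted p = 0.992, interval of the fold 0.610 to 1.88). Hrc had 2730 and 3211 in KO, against 2343 and 4582 in WT, with both KO values between the WT values (-0.22, SE 0.45, adjusted p = 0.983, interval of the fold 0.469 to 1.57). Pvalb, the cytosolic buffer, had 651 and 662 in KO, against 464 and 883 in WT (-0.04, SE 0.46, adjusted p = 0.992, interval of the fold 0.522 to 1.82). The KO values of Pvalb were close to each other and lay inside the range of the WT values.

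Counted over the gene fits, 0 of the 8 tested genes of the group passed an adjusted p of 0.1, and Pln was not tested. The background was 2.67% of the 4688 genes with an adjusted p in DESeq2 (1.71% called higher and 0.96% called lower in KO), and 0.883% of the 6115 genes in edgeR, which tested all 9 genes and called 0. At an unadjusted p under 0.05, 1 of the 9 genes was found by DESeq2 and 1 by edgeR, Pln in each case, against 6.88% of all 9838 genes in DESeq2 and 10.5% of the 6115 genes in edgeR. The median log2 fold change of the 9 genes, Pln without an adjusted p included, was 0.05. That of all genes with an adjusted p was 0.01, so the 2 sets are not chosen alike. The upper bound of the fold stood between 1.57 and 5.77 for the 8 tested genes and the lower bound between 0.303 and 0.678, and a change inside the interval of a gene could not be told from none at this depth and number of mice.

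**Figure D2:**
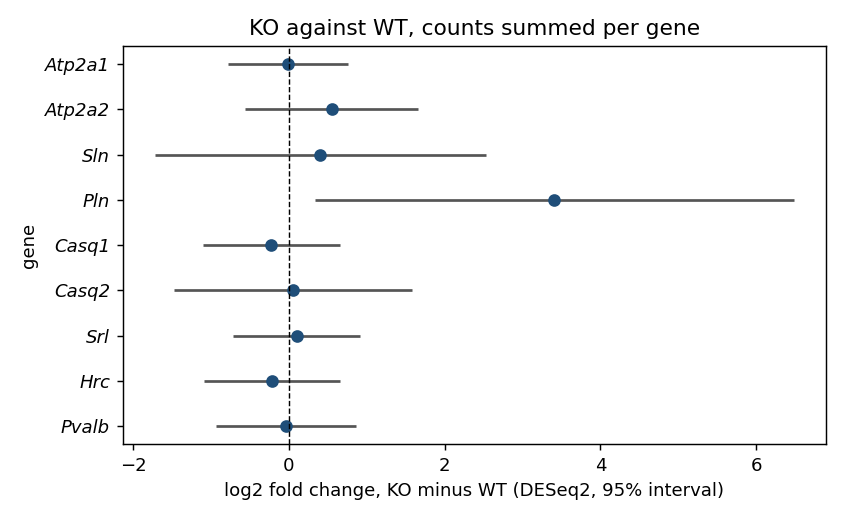
Log2 fold change of each gene (x axis, KO minus WT, 95% interval from DESeq2 as bars), with the genes on the y axis and 0 as the dashed line. The intervals of 8 genes include 0, and that of Pln, at 3.41, rests on 59 antisense reads and has no adjusted p.

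Where the reads of a gene began was followed next, by site. Of the 102 sites, 50 had an adjusted p in the site comparison and 0 were called, against 3.21% of the 11112 sites tested over all genes. At an unadjusted p under 0.05 there were 2 of the 102 sites in DESeq2 (4.05% of all sites) and 2 of the 48 that edgeR tested (10.3% of all sites it tested), and edgeR also called 0 of them. The use of sites relative to the other sites of their gene could be tested for 6 of the genes (Atp2a1, Atp2a2, Srl, Pvalb, Hrc and Casq1) and was called in 0 of them with edgeR diffSpliceDGE (Simes, adjusted p = 1.00 for each), against 1.77% of 2145 genes. The smallest unadjusted p among them was 0.245, for Atp2a2.

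Atp2a1 had 33 sites, and a pair of them held most of its reads. The start site at chr7:126463001-126463131 spans the annotated 5′ end of the gene and had 3030 and 5211 reads in KO, against 2551 and 4742 in WT. It held 18.6% and 54.0% of the Atp2a1 reads in KO, against 44.9% and 56.0% in WT, so that KO replicate 1 stood apart from the other libraries. The most abundant site was intronic, 30 bases wide at chr7:126453769-126453798, and had 12043 and 3577 reads in KO, against 2290 and 3010 in WT, again with KO replicate 1 apart. Neither site passed the test (log2 fold changes -0.46, SE 0.61, and 0.74, SE 0.61, with DESeq2 adjusted p of 1.00 and 0.951). Without the intronic site, left out after seeing the data, the gene had a log2 fold change of -0.55, and over exonic sites -0.31, neither of them called.

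The member site with the smallest unadjusted p was also intronic in Atp2a1, at chr7:126449239-126449249. It had 45 and 6 reads in KO, against 0 and 1 in WT, and most of its reads came from KO replicate 1 (DESeq2, log2 fold change 4.82 with SE 2.18, adjusted p = 0.370).

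**Figure D3:**
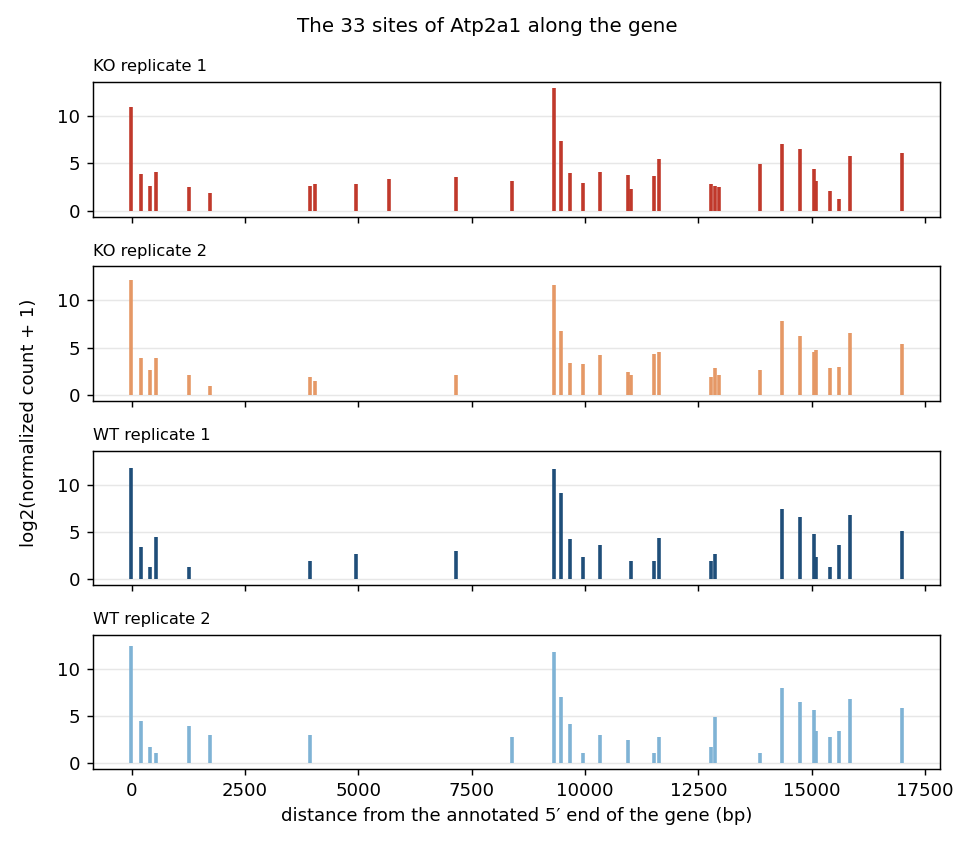
The 33 Atp2a1 sites along the gene, with the distance of each site from the annotated 5′ end in bp on the x axis and log2(normalized count + 1) on the y axis, in 1 panel per library. The tall lines are the start site at the 5′ end and the intronic site 9323 bp into the gene. In KO replicate 1 the normalized count of the intronic site (7903) exceeds that of the start site (1988), whereas the start site is the higher in the other libraries.

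Atp2a2 had 14 sites, none within 100 bp of the annotated start. The nearest, at chr5:122501730-122501900, was 464 bp into the gene and had 25 and 33 KO reads and 9 and 6 WT reads (DESeq2, log2 fold change 1.23 with SE 1.25, adjusted p = 1.00). Its most abundant site was intronic, at chr5:122497306-122497330, with 50 and 14 KO reads and 7 and 29 WT reads. Both KO libraries lay above both WT libraries at the former site and not at the latter.

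Srl, with 23 sites, likewise had its most abundant site in an intron. That site, at chr16:4507932-4507960, had 1375 and 562 reads in KO, against 265 and 436 in WT (DESeq2, log2 fold change 0.68 with SE 0.60, adjusted p = 0.981). Intronic sites held 60.9% and 47.0% of the Srl reads in KO, against 37.4% and 40.0% in WT. For Atp2a1 these shares were 77.0% and 39.2% in KO, against 48.3% and 37.4% in WT, and for Atp2a2 62.6% and 32.8% in KO, against 48.0% and 52.9% in WT. KO replicate 1 had the highest intronic share in each of these 3 genes, as it did over all genes, and the part of this difference between libraries in the site values was not tested.

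The remaining buffers were read mostly at sites counted here as exonic, and for several of them far from the annotated start. The most abundant sites of Casq1, Pvalb and Casq2 held 62.9%, 88.5% and 94.1% of the reads of the gene. By their class code (e) these 3 sites reach from an exon into an intron, so that they do not lie wholly in exons. The most abundant Casq1 site, at chr1:172210334-172210530, lay 94.0% of the way along the gene and had 470 and 479 KO reads and 266 and 386 WT reads. For Pvalb the site at chr15:78191527-78191745 lay at 96.1% and had 941 and 690 KO reads and 301 and 604 WT reads. The main Casq2 site, at chr3:102145171-102145361, lay at 97.8% and had 81 and 42 KO reads and 18 and 52 WT reads. By contrast, none of the 5 Hrc sites lay beyond 43.3% of the gene, and the most abundant, 1050 bases wide at chr7:45335497-45336546, had 3787 and 3003 KO reads and 1443 and 3181 WT reads. The Hrc site at the annotated start, at chr7:45335244-45335301, had 58 and 68 KO reads and 23 and 29 WT reads, or 1.32% of the reads of the gene.

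**Figure D4:**
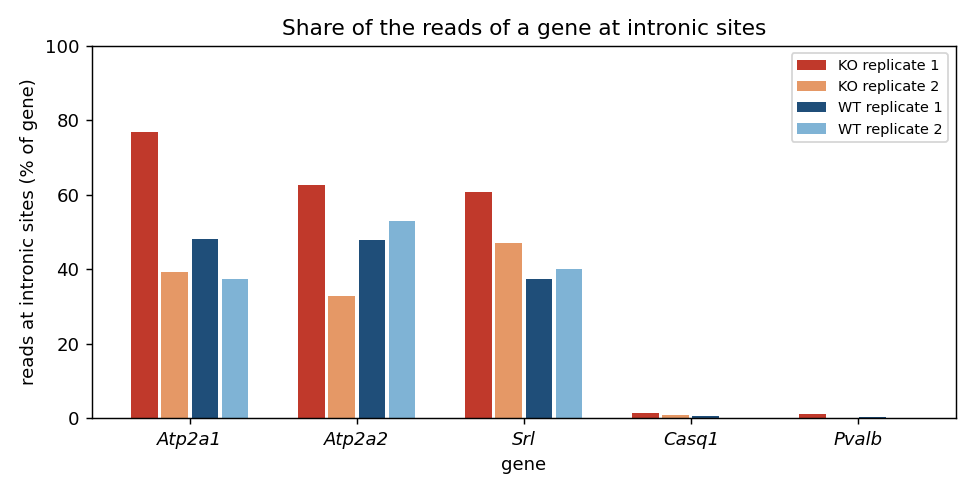
Share of the reads of a gene that lay at intronic sites (y axis, percent of the reads of that gene), for 5 genes on the x axis, with 1 bar per library in the colours of the legend. KO replicate 1 has the tallest bar for Atp2a1 (77.0%), Atp2a2 (62.6%) and Srl (60.9%), and Casq1 and Pvalb stay under 2% in every library. Sites that reach from an exon into an intron, the most abundant sites of Casq1 and Pvalb among them, are not counted as intronic.

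Sites within 100 bp of an annotated start held 24.1% of the reads of the 9 genes, from 12.2% in KO replicate 1 to 32.3% in WT replicate 2, and nearly all of these reads were those of Atp2a1. Many of the values above thus count reads that begin inside the gene, and what gave rise to these read ends was not tested. Apart from the pump and calsequestrin shares, levels were not compared between genes, since transcript lengths were not used here. The size of those shares is likewise not corrected for length or for where the reads begin.

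The genes with the most similar profiles over the 4 libraries were found among 1398 genes with a mean normalized count of at least 100, by the largest log2 difference between centred profiles. They included Atf1 (0.0585) and Srl (0.0853) for Atp2a1, and were Ube2w (0.0727), Kif13a (0.0831) and Rps6ka3 (0.0903) for Atp2a2. These likenesses rest on 4 libraries and are a description.

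The other calcium handling genes, from a list of 49, were taken as the pathway around the pumps and buffers. The table held 45 of them (Atp2a3, Atp2b2, Fkbp1b and Strit1 were not detected), and of the 35 tested, 24 were higher and 11 lower in KO, with a median log2 fold change of 0.35 against 0.01 over all tested genes. Of all 4688 tested genes, 2368 were higher and 2320 lower in KO. In DESeq2, 3 of the list rose and 1 fell at an adjusted p under 0.1, against 1.71% and 0.96% of all tested genes. edgeR called 1 of the 4 (Tmem38b), against 0.883% of the 6115 genes it tested. The list was chosen with earlier results of these data known, and these counts are a description.

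Slc8a3, a sodium and calcium exchanger of the surface membrane, rose from normalized counts of 37.9 and 24.9 in WT to 119 and 176 in KO (DESeq2, log2 fold change 2.23 with SE 0.62, adjusted p = 0.0234). Its called site, intronic at chr12:81212938-81212964, had 89 and 106 KO reads and 3 and 7 WT reads. Tmem38b, a potassium channel of the reticulum that balances the charge of released calcium, had 2.80 and 0 in WT and 73.3 and 21.0 in KO (adjusted p = 0.0234). Its ratio of reads was 39.2 with an exact interval of 10.7 to 327 that covers counting error only and not the spread between mice. KO replicate 1 gave 120 of its 144 KO reads. The called site, 2 bases wide, took 107 and 21 of the KO reads. Cacna2d1, a subunit of the voltage-gated calcium channel, rose from 369 and 353 to 872 and 872 (1.27, SE 0.41, DESeq2 adjusted p = 0.0872). This call was lost with independent filtering off (DESeq2 adjusted p = 0.159) and over features with at least 20 reads (0.143). Each of its called sites was intronic and came mostly from 1 KO library, with 173 and 6 KO reads at chr5:16098109-16098115 and 23 and 426 at chr5:16145035-16145057.

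Calr, which encodes calreticulin, the luminal calcium buffer of the endoplasmic reticulum, fell from 763 and 608 in WT to 175 and 295 in KO (DESeq2, log2 fold change -1.55 with SE 0.46, adjusted p = 0.0474). Ppp3r1, the regulatory subunit of calcineurin, was not called as a gene (0.43, SE 0.60, adjusted p = 0.951), but its site at chr11:17200043-17200095 was (adjusted p = 0.0865), with 120 and 13 KO reads and 2 and 2 WT reads. Leaving out KO replicate 1 or WT replicate 2 left 0 of the 4 genes called, leaving out KO replicate 2 left 1, and leaving out WT replicate 1 left 2. Over exonic sites 1 was called, Tmem38b (DESeq2 adjusted p = 0.0157). There Calr (0.320) and Cacna2d1 lost their calls, and Slc8a3 had no adjusted p.

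Markers listed for other cells were measured beside these genes. All 11 fibroblast markers were lower in KO, against 2320 of all 4688 tested genes. Their sums were 3688 and 3818 in KO, against 5326 and 5206 in WT, with a median log2 fold change of -0.62. In 7 of the 11 both KO libraries lay below both WT libraries, against 19.4% of all tested genes. Of the 11 markers, 0 were called as genes. A single site of Col6a3, a collagen gene, was called with 0 and 3 KO reads and 22 and 52 WT reads. Smooth muscle (4 tested, median 0.29), adipocyte (6 tested, -0.39), blood (2 tested, -0.33) and heart markers (1 tested, -1.11) had 0 called genes. Des, with 1513 and 2114 in KO, against 1334 and 1917 in WT, made up most of the smooth muscle counts. The heart value is that of Actc1 alone. Whether Des and Actc1 were read from such cells or from the skeletal muscle fibres was not tested. The part of connective tissue in the lower Calr level was not tested.

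**Figure D5:**
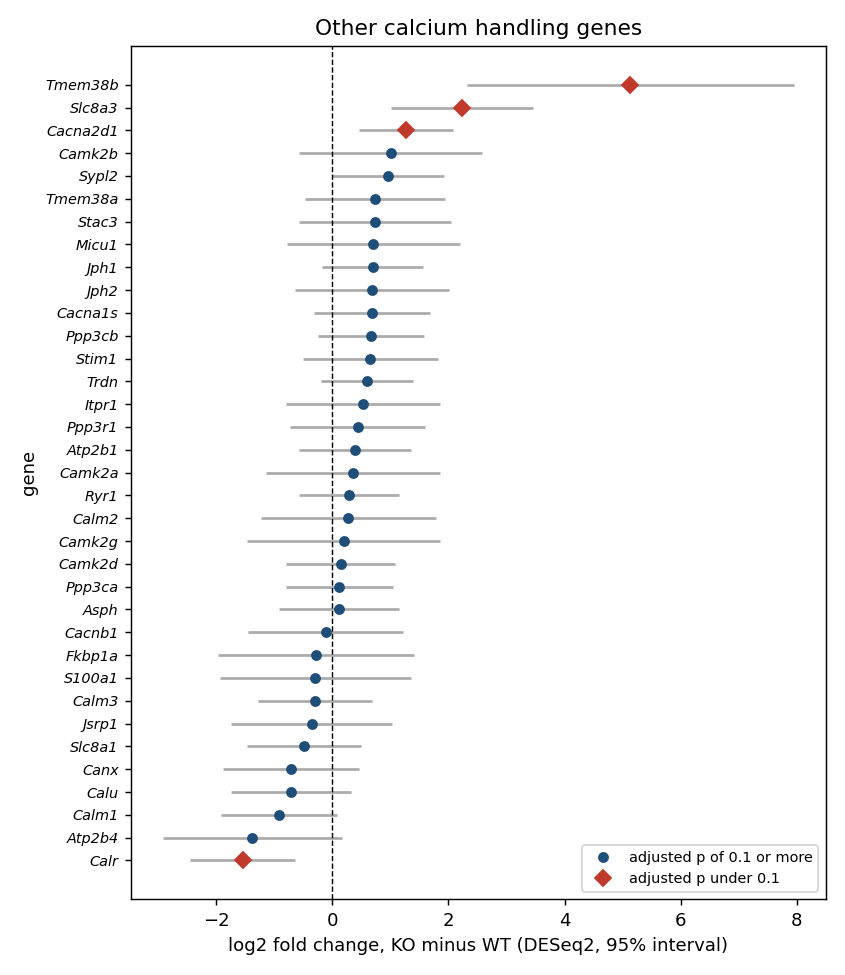
Log2 fold change (x axis, KO minus WT, 95% interval from DESeq2 as bars) of the 35 tested genes of the calcium handling list, ordered by value on the y axis. Red diamonds are the 4 genes with an adjusted p under 0.1, and 24 of the 35 points lie to the right of 0.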

How the data were processed

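The authors deposited 1 table of raw read counts with 1 row per start site and 1 count column per library. Per the labels, the ribosomal RNA of total RNA was depleted before cDNA synthesis and PCR. Per the submitters' processing notes the genome was GRCm38 (p5). The study gave its mapping, clustering and site assignment steps for its 3′ libraries, and whether they were the same here is not given in the sources used here. The lowest total of a listed site was 10 reads, and class codes gave the position of a site (c, o, e and = counted as exonic, i intronic, x antisense). For its 3′ sites the study describes code e as reaching from an exon into an intron and groups it with code i.

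For the gene level, the counts of all rows of a symbol were added up. Sites without a gene, 4.34% to 4.95% of the reads, were left out of the gene sums and of the site use test and kept in the site comparison. DESeq2 1.42.0 (adjusted p under 0.1, Benjamini-Hochberg over all features) was the main test, as in the study, and edgeR 4.0.16 the alternative, in R 4.3.3. With normalization by median of ratios, a gene's normalized count needed a mean above 16.5 to receive an adjusted p. The scripts were tested on simulated data. The named genes are the 9 members, their most abundant, start and smallest-p sites, listed calcium handling genes that were called or had the 3 smallest p-values, called marker genes and sites, and the 3 genes most like each pump. A result under this rule is not reported here. The members and lists were chosen with earlier results of these data known. Gene spans and promoter sequences came from RefSeq (GRCm38.p6), which shares its chromosome coordinates with the build of the files. Replicates differed by more than sampling noise (chi-square per degree of freedom 10.5 in KO and 6.46 in WT).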

Additional observations from a re-analysis of the deposited data

How the results depend on the processing

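No member gene, member site or member site use was called under any alternative tried (another scaling, filter, threshold, tool, pairing or leaving out a library). The log2 fold change kept its sign for Atp2a2 (0.28 to 0.85) and Pln (2.45 to 6.27), and changed it under at least 1 alternative for the other 7 genes. Genes called numbered 125, but 54 in edgeR, 59 over exonic sites and 56 to 77 without 1 library. Sites called numbered 357, but 80 in edgeR, 175 with independent filtering off, 222 at an adjusted p under 0.05, and 44 to 250 without 1 library. Calcium handling genes called numbered 4, but 1 in edgeR, 1 over exonic sites and 0 to 2 without 1 library. The Atp2a1 share of the pump reads differed by -0.448 points, but by -1.07 over exonic sites, 0.228 over the most abundant sites and -2.17 without the most abundant Atp2a1 site. The causes of these changes were not tested, apart from the fewer sites, genes or libraries that some alternatives use.

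With the replicate number as a block, 195 sites were called and the site use test called 12 of 2145 genes, and Cacna2d1 lost its call (DESeq2 adjusted p = 0.143). In edgeR the block raised the genes called from 54 to 96 and the calcium handling genes called from 1 to 2, with Slc8a3 added (adjusted p = 0.0852). The labels do not say that equal numbers mark paired mice, and deviations of same-numbered libraries correlated at 0.0716 over 5821 genes. Alternatives chosen after seeing the data were edgeR with the block, Atp2a1 without its most abundant site, the site comparison without the sites that name no gene (323 called) and the site use test with these sites kept in its filter and library sizes (39 of 2184 genes called, against 38 of 2145, with 0 of 6 members in each). Depth limits the least read genes most, with 59 reads over the 4 libraries for Pln and 101 for Sln.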
